A study of Homo sapiens with 6 samples.

Results

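The miR-548 family is a primate group of miRNAs whose hairpins derive from copies of MADE1, a short palindromic DNA transposon of the mariner type. Members were the mature miRNAs of the deposited count table whose names begin with miR-548, miR-570 or miR-603, the names given to this family. The rule uses no measured value, although it was set with earlier results of these data known. They came to 19 of the 1000 mature miRNAs with a row, 18 of them named miR-548 and the remaining one miR-570-3p. miRNAs were sequenced from 3 libraries of wild type HEK 293T, an immortalised line from human embryonic kidney, and 3 libraries of ΔTUT4/7 cells, a double knockout strain of that line that lacks TENT3A and TENT3B, other names of TUT4 and TUT7. All cells were untreated and grown in the same medium. The comparison asked how the loss of both uridylyltransferases changes miRNA abundance. The double knockout was a strain received from another laboratory, while the wild type cells were obtained from a culture collection. The clones of the knockout are not described in the sources used here, so that strain and genotype cannot be told apart. The labels call the libraries of a strain biological replicates and say no more of their origin.

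A miRNA hairpin is cut from its primary transcript by Drosha and opened by Dicer into a 5p and a 3p arm, and the arm that is loaded into an Argonaute protein finds its targets mainly through its seed. Because MADE1 is a near-perfect inverted repeat, a transcribed copy can fold back on itself and enter this pathway without further change. TUT4 and TUT7 add uridines to RNA 3′ ends, and both block and promote the processing of different miRNA precursors. Long uridine tails mark precursors such as pre-let-7 for decay.

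The hairpin of miR-570 is given as an example of this shape, since the flanks of its loop are close to reverse complements of each other. It lies on the plus strand at chr3:195699401-195699497 of hg38 in an intron of the long noncoding gene MUC20-OT1, and the capitals mark the mature arm miR-570-3p. Sequences are from RefSeq on GRCh38.p14.
MIR570: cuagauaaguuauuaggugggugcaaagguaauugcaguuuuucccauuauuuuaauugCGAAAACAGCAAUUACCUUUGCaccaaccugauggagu
Of its 97 nt, 70.1% matched the reverse complement of the same hairpin in the best alignment without gaps, with a shift of at most 6 nt. The median was 69.5% over the 6 family hairpins in the RefSeq table and 50.0% over 1554 other hairpins. Of these others, 357 were at or above the lowest family hairpin, MIR548AR at 63.2%.

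Mature sequences were found for 14 of the 19 arms, and the following arms carry the comparisons described next. No sequence is shown for miR-548a-3p, miR-548ad-5p, miR-548aw, miR-548e-3p and miR-548h-5p. Capitals mark the seed, bases 2 to 8 from the 5′ end. The first 5p arms are shown because they share all or most of their first 18 nt, and miR-548an and miR-548e-5p because they had the lowest and the highest log2 fold change of the tested arms.
miR-548l: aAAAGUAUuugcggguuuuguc
miR-548k: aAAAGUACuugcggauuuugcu
miR-548av-5p: aAAAGUACuugcggauuu
miR-548ap-5p: aAAAGUAAuugcggucuuu
miR-548j-5p: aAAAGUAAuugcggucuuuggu
miR-548an: aAAAGGCAuugugguuuuug
miR-548e-5p: cAAAAGCAaucgcgguuuuugc
The next set holds 3p arms, which read the opposite flank of the hairpin. The first pair was lower in the knockout by a similar amount, and miR-548b-3p was the most abundant member.
miR-570-3p: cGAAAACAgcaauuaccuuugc
miR-548ay-3p: cAAAACCGcgauuacucuugca
miR-548as-3p: uAAAACCCacaauuauguuugu
miR-548b-3p: cAAGAACCucaguugcuuuugu

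Reads were trimmed to 18 nt, so arms with the same first 18 nt cannot be told apart. No pair among the 14 arms with a sequence shared its first 18 nt. The first 18 nt of miR-548ap-5p are those of miR-548j-5p, and those of miR-548k are those of miR-548av-5p. Neither partner has a row in the table used here, so the counts listed as miR-548ap-5p or miR-548k may hold reads of either name. The closest pair with rows was miR-548k and miR-548l, which differ within the first 18 nt by C8U and A15G, with the base of miR-548k first and positions counted from the 5′ end. The first of these changes the last base of the seed. Among the 14 arms with a row and a sequence, miR-548ar-3p and miR-548bc shared the seed AAAACUG, and no other pair had the same seed. The seeds of miR-548k and miR-548ap-5p are also those of miR-548av-5p and miR-548j-5p, respectively. Seeds of the arms without a sequence here were not compared.

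The 6 libraries held between 4338558 and 7967606 counts, so a single count was worth 0.126 to 0.230 CPM, the count scaled to 1000000 counts of a library. CPM was taken over the total miRNA count of a library and was not scaled by length, since all reads were trimmed to the same 18 nt. miR-17-5p, miR-20a-5p and miR-92a-3p, which share a cluster typical of proliferating cells, were at 2402 to 66860 CPM in every library. The liver miRNA miR-122-5p was at 0.208 to 1.76 CPM and the red cell miRNA miR-451a at 0.416 to 1.13 CPM. The blood miRNA miR-142-3p reached 30.9 to 96.4 CPM, its partner arm miR-142-5p 1.38 to 5.76 CPM and the endothelial miRNA miR-126-3p 2799 to 3938 CPM. TUT4 and TUT7 are not seen in counts of mature miRNAs, and the genotype was not checked here. Wild type replicate 3 stood apart: of 391 miRNAs with a mean above 10 CPM, 16 were at least 2-fold above both other wild type libraries in it, against 0 to 3 for any of the other libraries within its own strain. miR-548b-3p was among those 16.

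The family was a minor part of the miRNA pool. Its summed level was 453, 448 and 391 CPM in ΔTUT4/7 replicates 1, 2 and 3, and 417, 373 and 592 CPM in wild type replicates 1, 2 and 3. The strains overlapped, and wild type replicate 3 was highest. The 19 arms spanned a wide range of levels, from a mean of 0.328 CPM for miR-548bc to 194 CPM for miR-548b-3p, and 8 of them were above 10 CPM. For 15 arms the highest count was above 7, the limit for testing. The other 4 arms had 10 to 22 counts in all 6 libraries together, and were, from the most to the fewest, miR-548aw, miR-548ar-3p and, with equal totals, miR-548ad-5p and miR-548bc.

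**Figure D1:**
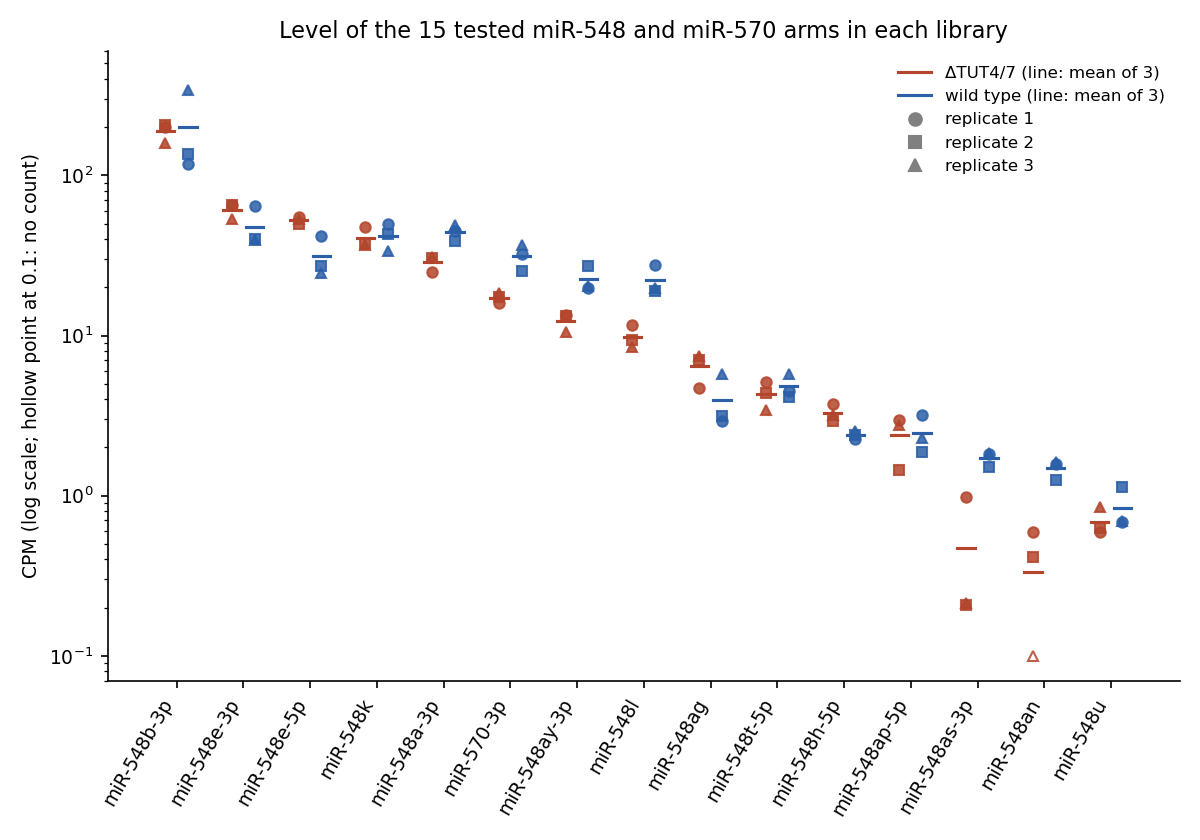
CPM (log scale) of each tested arm in the 3 ΔTUT4/7 libraries and the 3 wild type libraries, with the symbol giving the replicate and the line the mean of 3; a hollow point marks a library with no count. For miR-548a-3p, miR-570-3p, miR-548ay-3p, miR-548l, miR-548as-3p and miR-548an every knockout library lies below every wild type library, while miR-548b-3p in wild type replicate 3 lies at 343 CPM, above all others.

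Between the strains, 3 arms fell at least 2-fold with an adjusted p under 0.05, namely miR-548l, miR-548as-3p and miR-548an, and no arm rose by this rule. All p-values came from the quasi-likelihood test in edgeR and were Benjamini-Hochberg adjusted over all 826 tested miRNAs, of which 13.6% were called decreased and 16.5% increased. The family's 3 of 15 decreased arms (20%) were thus close to the share of all tested miRNAs. With library totals that leave let-7 and miR-98 out, 0 family arms were called decreased, and with DESeq2 1 was. By adjusted p alone, whatever the fold, 6 arms were lower (40%) and miR-548e-5p was higher (6.67%), against 21.9% lower and 23.2% higher over all tested miRNAs. This count without the fold limit was chosen after the values were seen. In the same 6 arms every knockout library lay below every wild type library, as it did for 29.5% of tested miRNAs. The opposite order held for miR-548e-5p and miR-548h-5p, and for 28.8% of tested miRNAs. The median log2 fold change was -0.14 over the 15 arms and 0.013 over all tested miRNAs. These counts cover only arms that passed the limit. miR-548as-3p, miR-548an and miR-548u passed it through their wild type counts alone, as did 105 of the 826 tested miRNAs. Another 68 of these 826 passed it through their knockout counts alone.

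**Figure D2:**
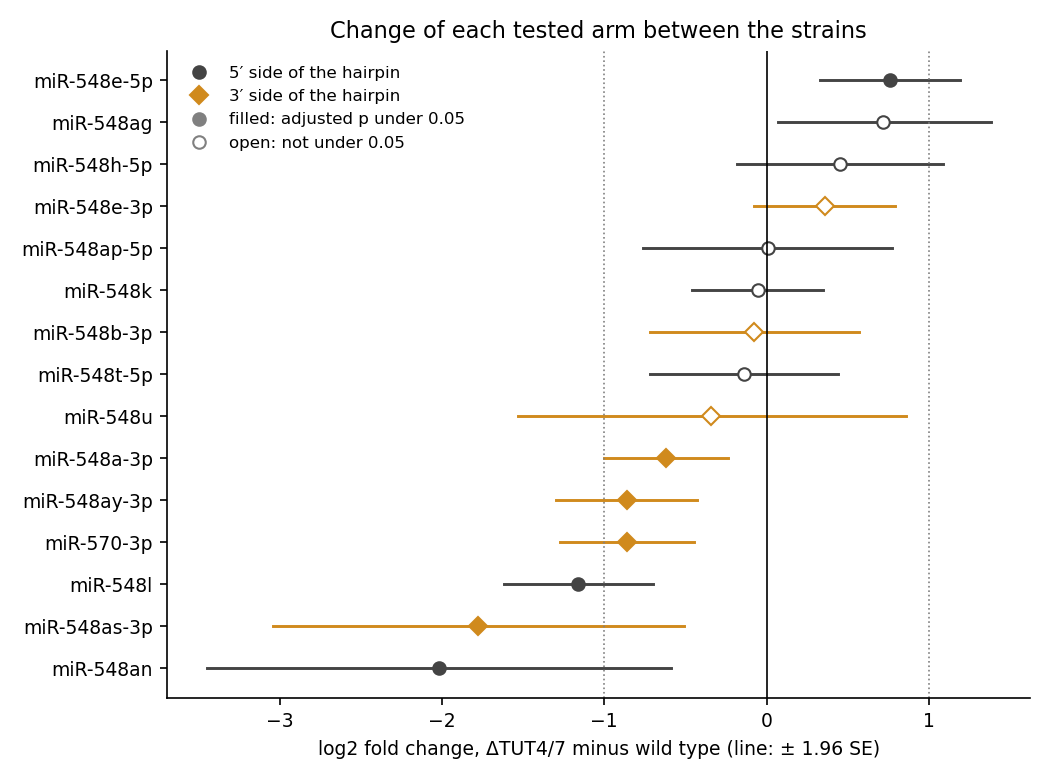
Log2 fold change (ΔTUT4/7 minus wild type) of each of the 15 tested arms, with lines of 1.96 SE to each side, filled symbols for an adjusted p under 0.05 and dotted lines at a 2-fold change. The values run from -2.02 for miR-548an to 0.76 for miR-548e-5p, and the lines of miR-548as-3p and miR-548an are the widest. The lines are not intervals of the test. That of miR-548ag, from 0.07 to 1.38, lies wholly on the positive side although its unadjusted edgeR p was 0.0523.

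Among the 5p arms, miR-548l was the best measured of those that fell. It lies on the minus strand at chr11:94466545-94466566 (hg38), in an intron of MRE11, a nuclease of DNA double-strand break repair. Its counts were 59, 45 and 40 in the ΔTUT4/7 libraries and 121, 152 and 86 in the wild type libraries, or 11.6, 9.36 and 8.53 CPM against 27.4, 19.1 and 19.8 CPM. All knockout libraries were lower than all wild type libraries, and wild type replicate 1 was the highest. The means were 9.84 ± 1.6 and 22.1 ± 4.62 CPM (SD, n = 3 each). The log2 fold change was -1.16 with an SE of 0.24 (edgeR adjusted p = 0.00187), a level 2.23-fold lower in ΔTUT4/7. Without wild type replicate 1 it was -0.98, short of the 2-fold limit, with an adjusted p of 0.0086 from edgeR. The limit was also missed with library totals that leave let-7 and miR-98 out (-0.93) and with the GC trend of each library removed (-0.95).

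miR-548k, the nearest relative of miR-548l by sequence, gave no such difference. It is listed on the plus strand at chr11:70283986-70284007, in an intron of PPFIA1, which encodes a liprin of focal adhesions. It was at 47.5, 37.2 and 36.7 CPM in the ΔTUT4/7 libraries and at 49.4, 42.8 and 33.9 CPM in the wild type ones. The strains overlapped, and the highest and the lowest library were both wild type. Its log2 fold change was -0.05 (SE 0.21, edgeR adjusted p = 0.848). A range of 1.96 SE to each side ran from -0.46 to 0.35 and left out a 2-fold change. Library scaling drops out of the ratio of these arms within a library. There were 4.09, 3.98 and 4.30 counts of miR-548k for each one of miR-548l in the ΔTUT4/7 libraries, and 1.80, 2.24 and 1.71 in the wild type libraries. Every knockout ratio was above every wild type ratio, at 4.12 ± 0.164 against 1.92 ± 0.286 (SD, n = 3 each). A two-sided exact permutation test gave p = 0.10, the smallest value that 3 against 3 libraries allow. This pair was compared after its values were seen.

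**Figure D3:**
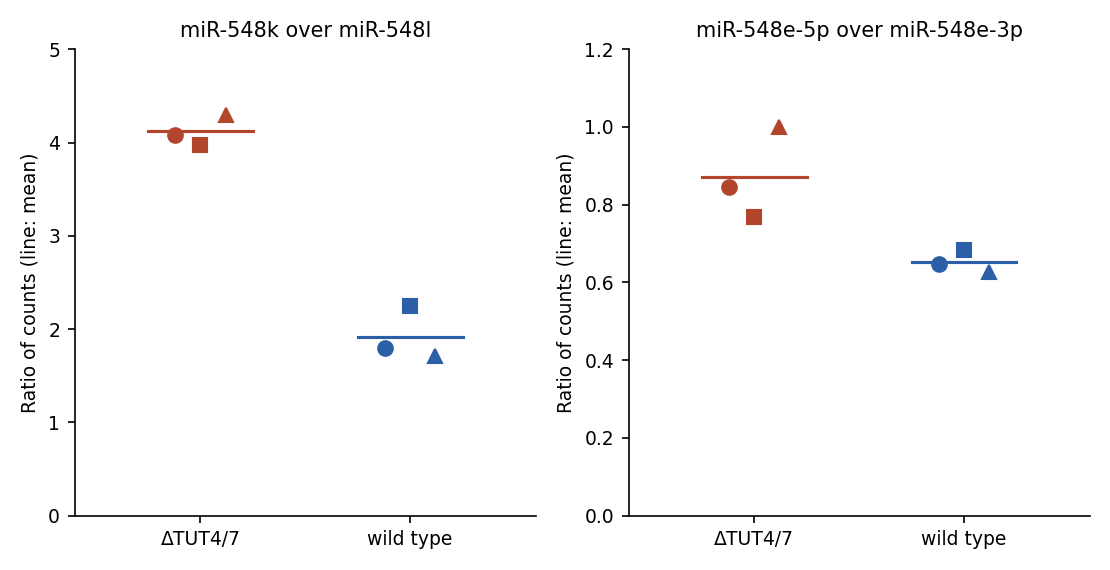
Ratio of counts within each library for miR-548k over miR-548l (left) and for both arms of the miR-548e hairpin, 5p over 3p (right), in the 3 ΔTUT4/7 and 3 wild type libraries, with circles, squares and triangles for replicates 1, 2 and 3 and lines for means. On both sides every knockout ratio lies above every wild type ratio, with means of 4.12 and 1.92 on the left and 0.872 and 0.652 on the right.

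miR-548an is listed on the plus strand at chrX:106639828-106639847, in an intron of RADX, a single-stranded DNA binding protein of replication forks. The arm was measured by few counts. It had 3, 2 and 0 counts in the ΔTUT4/7 libraries and 7, 10 and 7 in the wild type libraries. In CPM this was 0.591, 0.416 and 0 against 1.59, 1.26 and 1.61. The groups did not overlap, and the library with no count allows up to 0.640 CPM (3 counts). This gave a log2 fold change of -2.02 with an SE of 0.73 (edgeR adjusted p = 0.0408). Over pooled libraries the wild type rate was 4.18 times that of ΔTUT4/7, with an exact 95% interval of 1.57 to 14 that covers counting error only. The call was lost (edgeR adjusted p of 0.0772, 0.101, 0.0827 and 0.0811) when ΔTUT4/7 replicate 2 or 3, or wild type replicate 1 or 3, was left out, and DESeq2 gave an adjusted p of 0.0695. Without wild type replicate 2 no count was above 7 and the arm was not tested, so of the 6 libraries left out in turn only ΔTUT4/7 replicate 1 left the call in place (edgeR adjusted p = 0.0402).

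The 5p arm miR-548e-5p was the only family member that was higher by adjusted p. It comes from the plus strand at chr10:110988940-110988961, in an intron of SHOC2, a scaffold protein of RAS signalling. It was at 55.2, 49.9 and 53.5 CPM in ΔTUT4/7 (counts of 280, 240 and 251) and at 41.7, 27.4 and 24.7 CPM in wild type (counts of 184, 218 and 107). All knockout libraries were higher, and wild type replicate 1 was the closest to them. The log2 fold change of 0.76 (SE 0.22, edgeR adjusted p = 0.0141), or 1.70-fold, was under the 2-fold limit. Without wild type replicate 1 it was 1.02 with an edgeR adjusted p of 0.00253, past both limits. Without wild type replicate 2 it was 0.67 and no longer passed (edgeR adjusted p = 0.0582).

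The opposite arm of the same hairpin, miR-548e-3p, was at 65.2, 64.9 and 53.5 CPM in the knockout libraries and at 64.4, 40.0 and 39.4 CPM in the wild type ones. Wild type replicate 1 lay within the knockout range, and the log2 fold change of 0.36 (SE 0.22) did not pass the test (edgeR adjusted p = 0.202). It was 0.62 (edgeR adjusted p = 0.0293) without wild type replicate 1 and 0.58 (edgeR adjusted p = 0.0465) with library totals that leave let-7 and miR-98 out, under 0.05 in both. The 5p to 3p ratio of counts was 0.846, 0.769 and 1.00 in ΔTUT4/7 and 0.648, 0.683 and 0.626 in wild type. The knockout ratios were all higher, with means of 0.872 ± 0.118 and 0.652 ± 0.0291 (SD, n = 3 each). The two-sided exact permutation test again gave its smallest possible value, p = 0.10, for a ratio chosen after the values were seen.

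The remaining 5p arms did not pass the test. miR-548ag, miR-548t-5p, miR-548h-5p and miR-548ap-5p had 7 to 35 counts per library and were between 1.46 and 7.47 CPM. Their log2 fold changes were 0.72 (SE 0.34) for miR-548ag, -0.14 (SE 0.30) for miR-548t-5p, 0.45 (SE 0.32) for miR-548h-5p and 0.01 (SE 0.39) for miR-548ap-5p. All knockout libraries lay above all wild type libraries for miR-548h-5p, while the strains overlapped for the other three. miR-548ag passed both limits (log2 fold change 1.06, edgeR adjusted p = 0.0236) when wild type replicate 3 was left out. miR-548t-5p is listed in an intron of GALNT7, a glycosyltransferase of mucin-type O-glycans.

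Among the 3p arms, miR-570-3p and miR-548ay-3p fell by nearly the same amount. miR-570-3p, at chr3:195699460-195699481, was at 16.0, 17.5 and 18.3 CPM in ΔTUT4/7 (counts of 81, 84 and 86) and at 32.2, 25.4 and 36.9 CPM in wild type (counts of 142, 202 and 160). Its knockout libraries were all lower and close to each other. The log2 fold change was -0.86 (SE 0.21, edgeR adjusted p = 0.00557), or 1.82-fold lower. Without wild type replicate 2 it reached -1.0 (edgeR adjusted p = 0.00474) and passed the 2-fold limit.

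miR-548ay-3p, from the minus strand of an intergenic site at chr3:32506305-32506326, was at 13.4, 13.3 and 10.5 CPM in ΔTUT4/7 (counts of 68, 64 and 49). In wild type it was at 19.7, 27.1 and 20.5 CPM (counts of 87, 216 and 89). The groups did not overlap, and wild type replicate 2, the deepest library, was the highest. The log2 fold change was -0.86 (SE 0.22, edgeR adjusted p = 0.00733).

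miR-548a-3p, listed at chr6:18571844-18571865 in an intron of the long noncoding RNA MIR548A1HG, was lower by a smaller amount. Its counts were 127, 146 and 145 in ΔTUT4/7 and 199, 308 and 214 in wild type. As CPM these were 25, 30.4 and 30.9 against 45.1, 38.7 and 49.3. All wild type libraries were higher, and the log2 fold change was -0.62 (SE 0.19, edgeR adjusted p = 0.020), or 1.54-fold lower. Its edgeR adjusted p was 0.0819 without ΔTUT4/7 replicate 1, 0.0598 without ΔTUT4/7 replicate 2 and 0.106 with library totals that leave let-7 and miR-98 out, so that it no longer counted as lower.

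miR-548as-3p, from the plus strand at chr13:92490199-92490220 in an intron of GPC5, a cell surface heparan sulfate proteoglycan, was called at low counts. It had 5, 1 and 1 counts in ΔTUT4/7 and 8, 12 and 8 in wild type, or 0.985, 0.208 and 0.213 CPM against 1.81, 1.51 and 1.84 CPM. The groups did not overlap, although ΔTUT4/7 replicate 1 was several times above the other knockout libraries. Its log2 fold change was -1.78 with an SE of 0.65 (edgeR adjusted p = 0.0411). The pooled wild type rate was 3.49 times that of ΔTUT4/7, with an exact 95% counting interval of 1.49 to 9.46. Leaving out ΔTUT4/7 replicate 2 or 3, or wild type replicate 1, 2 or 3, ended the call (edgeR adjusted p of 0.132, 0.114, 0.0827, 0.0818 and 0.0805), and DESeq2 gave an adjusted p of 0.0761.

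miR-548b-3p, the most abundant arm, lies on the minus strand at chr6:119069062-119069083 in an intron of FAM184A. It was at 199, 206 and 160 CPM in ΔTUT4/7 (counts of 1011, 992 and 750) and at 119, 136 and 343 CPM in wild type (counts of 523, 1085 and 1489). The strains overlapped only because of wild type replicate 3, which was 2.90 times replicate 1 and 2.52 times replicate 2. The exact 95% counting intervals were 109 to 129 CPM in replicate 1, 128 to 145 CPM in replicate 2 and 326 to 361 CPM in replicate 3, so counting error does not span this gap. With all libraries the log2 fold change was -0.08 (SE 0.33, edgeR adjusted p = 0.861). Without wild type replicate 3 it was 0.56 (SE 0.15, edgeR adjusted p = 0.015), so the sign turned. The last tested 3p arm, miR-548u, is listed in an intron of the DNA primase subunit gene PRIM2. The arm had 3 to 9 counts per library and a log2 fold change of -0.34 (SE 0.61).

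miR-548b-3p was also the largest single part of the family total in every library. It made up 44%, 46% and 40.9% of the family's counts in ΔTUT4/7 and 28.4%, 36.5% and 58% in wild type. The other 18 arms together gave 254, 242 and 231 CPM in ΔTUT4/7 against 299, 237 and 249 CPM in wild type, and wild type replicate 3 no longer stood out. The mean total in ΔTUT4/7 was 0.935 times that of wild type with all arms and 0.927 times without miR-548b-3p. The direction turned, to 1.09 times, both without wild type replicate 3 and with library totals that leave let-7 and miR-98 out.

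**Figure D4:**
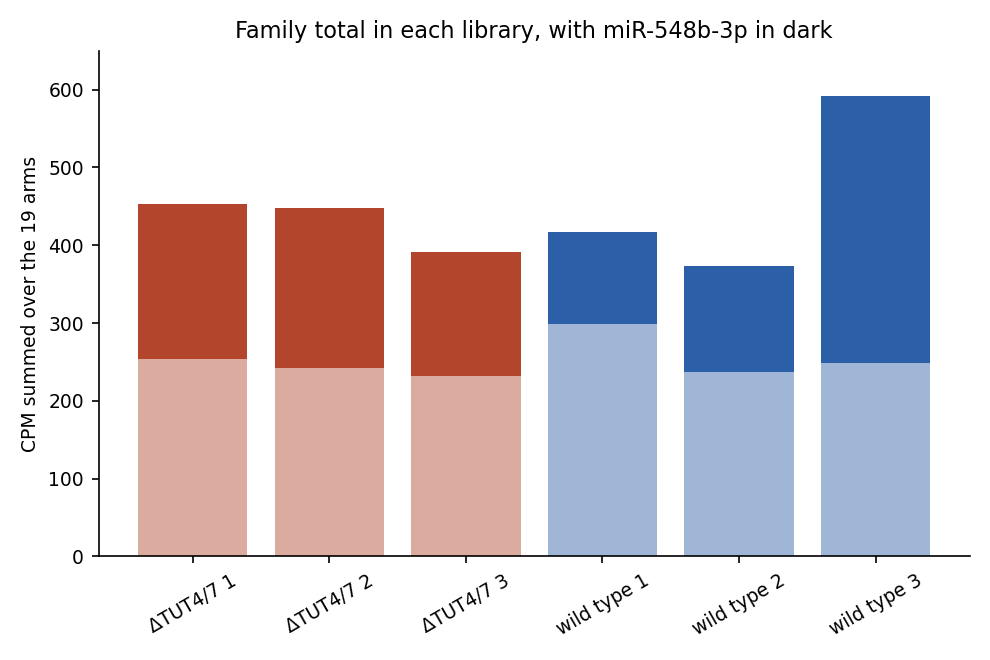
Summed CPM of the 19 family arms in each library, with miR-548b-3p in dark and the other 18 arms in light colour, for ΔTUT4/7 (red) and wild type (blue). Wild type replicate 3 has the highest total, 592 CPM, while its other 18 arms, at 249 CPM, lie between those of the other wild type libraries.

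By position in the hairpin, 8 tested arms came from the 5′ side and 7 from the 3′ side. The 5′ arms had a median log2 fold change of -0.02 and the 3′ arms one of -0.62. Of the 5′ arms, 2 were lower and 1 higher by adjusted p, and of the 3′ arms 4 were lower and none higher. By the same rule 22% of all tested miRNAs named 5p were lower and 26.7% higher, and 25.1% of those named 3p were lower and 19.1% higher. Over all tested miRNAs the medians were 0.07 for the 322 named 5p and -0.148 for the 350 named 3p. Family arms were placed by position, while the shares and medians over all tested miRNAs went by name. The split was not among the planned comparisons, and the difference between the sides of the hairpin was not tested.

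The family is made of repeats, and its first 18 nt differ widely in how often they occur in the genome. Exact matches of the first 18 nt on both strands of hg38 numbered 1 for miR-548as-3p, miR-548ay-3p, miR-548b-3p, miR-548e-5p, miR-548l and miR-570-3p. There were 2 for miR-548ag, miR-548ar-3p, miR-548k and miR-548t-5p, 6 for miR-548an, 21 each for miR-548ap-5p and miR-548u and 32 for miR-548bc. Positions and host genes given above are those of the annotated sites. Reads of 18 nt from arms with several matches cannot be assigned to a single site. The median was 2 over these 14 arms and 1 over the 883 other listed miRNAs with a sequence. The arms with 1 match had mean levels of 1.10 to 194 CPM, and the 8 arms with more had 0.328 to 41.3 CPM. Across the 14 arms, which share libraries and ancestry, the level was lower where matches were more numerous (Spearman's rho -0.71). The log2 fold change of the 12 tested ones had a rho of 0.17 with the number of matches. Arms without a sequence could not enter, among them the abundant miR-548e-3p and miR-548a-3p (means of 54.6 and 36.6 CPM), so neither value holds for the whole family. RefSeq holds 44 further family arms without a row in the table used here, whose median was 20.5 matches and whose highest was 1048. More than 20 matches were found for 22 of these 44 and for 3 of the 14 arms with a row. The sources used here do not say how the authors' alignment treated reads with many genome matches, and its part in these levels was not tested. Per the study's methods the annotation was a deduplicated miRBase set, and its part in which arms have a row was not tested.

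**Figure D5:**
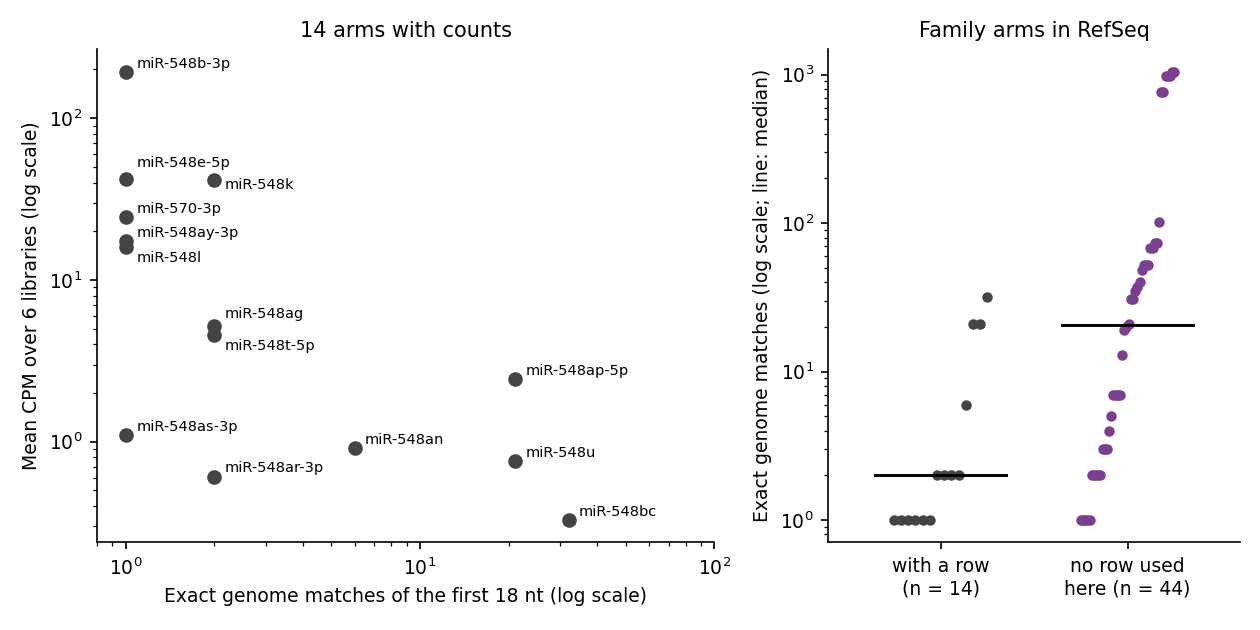
Left, mean CPM over 6 libraries (log scale) against the number of exact genome matches of the first 18 nt (log scale) for the 14 family arms with a sequence. Right, the number of matches for these 14 arms and for 44 further RefSeq arms of the family without a row, as points in rising order from left to right with the median as a line; the medians are 2 and 20.5.

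The arms were also poor in G and C. GC content was 27.3% to 45.5% with a median of 37.3%, against 50.0% over the 883 other listed miRNAs. Over 742 tested miRNAs with a sequence the log2 fold change had a Spearman's rho of 0.18 with GC content, and over the 12 such family arms one of 0.32. With the GC trend of each library removed, an alternative chosen after the data were seen, miR-548l was at -0.95 on the log2 scale and miR-548an at -1.84 (edgeR adjusted p = 0.0515), so that miR-548as-3p was the one arm still called. That fit held only the 742 miRNAs with a sequence, and on the same 742 without removal of the trend all 3 arms were called.

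Arms from other repeats were taken by name from a fixed list. Of 24 listed arms from LINE-2, LINE-1 or Alu elements and other DNA transposons, 19 were tested, 3 were decreased (15.8%) and none increased. The decreased ones were miR-28-5p (log2 fold change -1.18, edgeR adjusted p = 0.00136), miR-374c-5p (-1.48, 0.0144) and miR-340-3p (-1.25, 0.0147). No arm of this list was called once wild type replicate 3 was left out. Its most abundant arm, miR-374a-5p, had a mean of 3931 ± 307 CPM in ΔTUT4/7 against 4036 ± 776 CPM in wild type (SD, n = 3 each), with a difference of -0.04 on the log2 scale (SE 0.15). By adjusted p alone 7 arms of the list were lower (36.8%) and 1 was higher (5.26%), and the median log2 fold change was -0.25. Whether the family differs from this list was not tested.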

How the data were processed

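Small RNA libraries were made by the authors from total RNA with the QIAseq miRNA Library Kit. Per the labels and the study's methods, the authors trimmed reads to 18 nt and aligned them with Bowtie 1.0.0 (build hg38). Partek Flow 10.0.22 assigned them to mature miRNAs of a deduplicated miRBase set. The deposited values are estimated counts from expectation-maximization, which divides reads that match several miRNAs, and all were whole numbers. The sources used here do not say whether molecular identifiers were collapsed. The authors' deposited comparison (fold changes and p-values) was not used.

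CPM and tests used the summed miRNA count of each library, with no further normalization factor. Each miRNA whose highest count exceeded 7 entered the quasi-likelihood fit in edgeR 4.0.16 (R 4.3.3) over the 6 libraries, and was called at a 2-fold change with a Benjamini-Hochberg adjusted p under 0.05. SE was the log2 fold change divided by the root of the F statistic. Fitting was tested on simulated data. Alternatives were TMM and RLE factors, DESeq2 1.42.0, totals without let-7 and miR-98, no filter, a replicate block, each library left out, sums over shared first 18 nt, other call rules and removal of the GC trend (lowess, span 0.5) on the 742 miRNAs with a sequence, beside a fit of these miRNAs alone. The call by adjusted p alone and the last pair were chosen after the data were seen. RefSeq mature sequences were matched by name, and hairpins and host genes were taken from GENCODE. File starts equalled RefSeq starts for 892 of 897 miRNAs, and file ends, 1 past the last base in all 892, were corrected. Every tested family arm is named, with values per library for called arms and the 8 most abundant. The members and lists were chosen with earlier results of these data known. P-values measure the spread between these libraries only.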

Additional observations from a re-analysis of the deposited data

How the results depend on the processing

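The number of decreased family arms (3) stayed at 3 with TMM or RLE factors and without the filter on low counts. It also did so on the 742 miRNAs with a RefSeq sequence alone and by a 2-fold change alone. Sums over shared first 18 nt gave 3 as well, but they merged no family rows and left the family's own counts as they were. The number of decreased arms was 0 with library totals from which let-7 and miR-98 were removed, 1 with DESeq2 and 1 with the replicate block. It was 1 with the GC trend removed, 0 to 3 with a library left out and 6 by adjusted p alone. Increased family arms numbered 1 by adjusted p alone and 0 to 1 with a library left out. miR-548l kept an adjusted p under 0.05 in all 15 alternatives (log2 fold change -1.30 to -0.93), and the 2-fold limit was missed in 3 of them. Totals without let-7 and miR-98 moved the median of all tested miRNAs from 0.013 to 0.234 and the calls from 136 increased and 112 decreased to 183 and 81. miR-548l was then at -0.93. By adjusted p alone, 181 of all tested miRNAs were lower. Other repeat-derived arms had 1 increased with those totals, 1 without the filter and 1 by adjusted p alone. Their decreased arms numbered 1 with the GC trend removed, a fit that leaves out miRNAs without a sequence (2 on the same miRNAs with the trend kept), 7 by adjusted p alone and 0 to 3 with a library left out.

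The sign turned for 4 arms near 0 that were not called in any alternative. miR-548ap-5p was at -0.04 with RLE factors, -0.05 with DESeq2 and -0.06 with the replicate block, and from -0.19 to 0.26 with a library left out. miR-548b-3p was at 0.14 with totals without let-7 and miR-98, 0.10 with the replicate block and 0.21 with the GC trend removed, and from -0.34 to 0.56 with a library left out. miR-548k was at 0.17 and 0.14 with those totals and the GC trend removed, and from -0.19 to 0.07 with a library left out. miR-548t-5p was at 0.08 and 0.07, and from -0.29 to 0.00. Their causes were not tested.

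Libraries with the same replicate number did not vary together: their deviations from the strain means had correlations of -0.17, -0.16 and -0.25 over 391 miRNAs. For every library the correlation with its own number was the lowest, and different numbers gave -0.10 to 0.19. Deviations from a mean of 3 libraries depend on each other, so these values cannot show whether libraries were prepared in pairs. The replicate block gave 131 increased and 102 decreased miRNAs. Arms with few counts were limited by depth, since 1 count was worth up to 0.230 CPM.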
